A study of Mus musculus with 6 samples.

Results

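The genes described here encode caldesmon, the tropomyosins, chains of nonmuscle myosin II, myosin light chain kinase and a calponin, and comprise 10 of the 47729 genes counted in immortalized bone marrow-derived macrophages (BMMs). They are Cald1, Tpm1, Tpm2, Tpm3, Tpm4, Myl9, Myl6, Myh9, Mylk and Cnn2. They were chosen by name as actomyosin regulators, and the group was selected on the genotype difference of Cald1 in these same libraries. Genotype differences of the 10 genes are therefore descriptions, with no p-value, and a count of them past the threshold is no evidence about the group.

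RNA-seq compared 3 Aif1-/- with 3 WT libraries of BMMs. Aif1 encodes allograft inflammatory factor 1, a calcium-binding, actin-associated protein of macrophages, and the comparison asks how its loss changes the macrophage transcriptome. Both groups came from the marrow of 8-week-old male C57BL/6J mice, were immortalized with SV40 large T antigen, and were cultured for 3 to 5 passages in α-MEM with 10% FBS and 120 ng/ml CSF-1. They differed in the label of genotype, Aif1-/- or WT, and no further treatment was given. The study describes the libraries as biologically independent animals, but the labels do not say whether each is a separately immortalized line, so p-values measure only the spread between these libraries. The series' design text writes Aif1l-/- where the sample labels write Aif1-/-. Aif1 had raw counts of 4, 4 and 1 in Aif1-/- libraries, against 220, 157 and 239 in WT libraries. Its relative Aif1l had raw counts of 2, 0 and 0 in Aif1-/- libraries, against 1, 3 and 0 in WT libraries, too few to test. Aif1 counts thus went with the sample labels.

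Nonmuscle myosin II is a motor of paired heavy chains, each bound to an essential and a regulatory light chain, that pulls on actin filaments. Phosphorylation of the regulatory light chain, by myosin light chain kinase and by other kinases, switches the motor on, and myosin phosphatase switches it off. Tropomyosins lie along actin filaments and set which motors and other proteins can bind, while caldesmon and calponins bind actin and restrain myosin. In macrophages this machinery acts in cell spreading, podosomes and phagocytosis.

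Gene counts per library ran between 17707986 and 26486393 in Aif1-/- and between 23253869 and 29314253 in WT. The share of reads matched to no gene was 33.6% to 35.7% in Aif1-/- libraries and 25.5% to 40.4% in WT libraries. Of the 17406 genes with enough counts to test, 3231 (18.6%) passed an adjusted p of 0.05 in edgeR's quasi-likelihood test, 1399 (8.04%) of them higher and 1832 (10.5%) lower in Aif1-/-. The count was 2040, 2113 and 2140 without Aif1-/- replicates 1, 2 and 3 in turn, and 4889 without WT replicate 3. It was 5517 with the share of reads matched to no gene as a covariate. Of the 9 macrophage markers, 7 rose, 1 fell and 1 was not called, and their summed level was 5830 to 5898 CPM (counts scaled per 1000000) in Aif1-/-, against 3840 to 4702 CPM in WT. In bulk RNA, fewer cells of a type and less RNA per cell cannot be told apart.

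Of the 10 genes, 8 had enough counts to test and Tpm2 and Myl9 did not. Cald1, Myl6, Myh9 and Cnn2 passed the threshold upward (4 of 8, beside 8.04% of all genes) and none passed it downward (beside 10.5%). For the same 4 genes the normalized counts of the genotypes did not overlap, beside 35.7% of all tested genes. Nothing is read from these shares, because the group was chosen on this contrast. Values below are normalized counts, which are raw counts scaled to a common library size, unless stated otherwise.

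**Figure D1:**
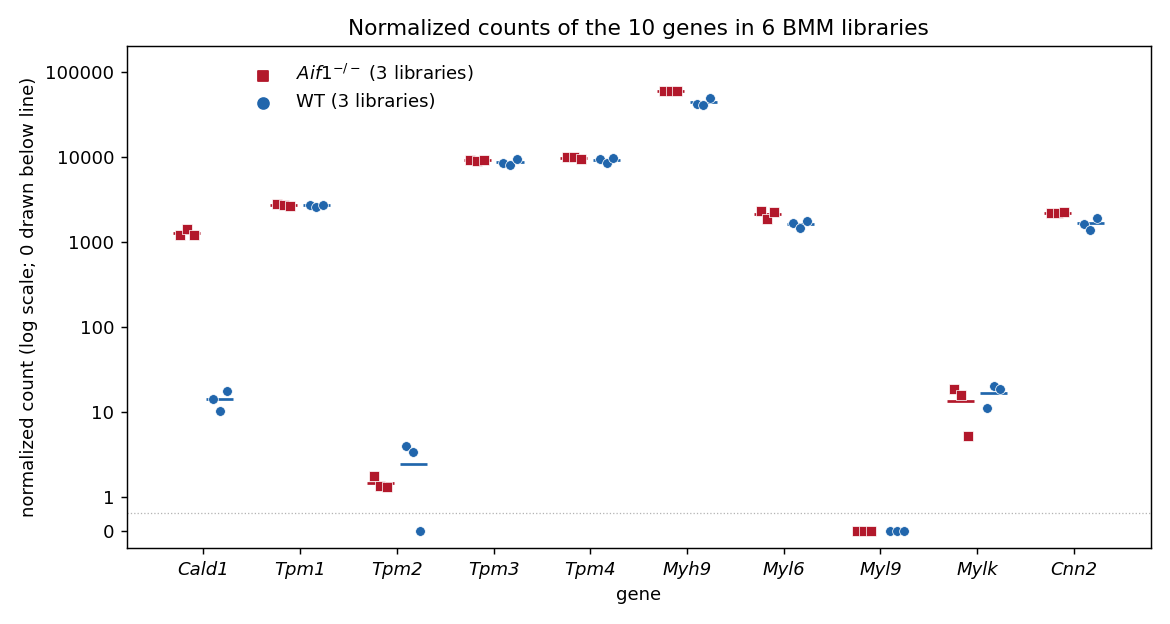
Normalized counts (log axis, with 0 drawn below the dotted line) of the 10 genes in 3 Aif1-/- libraries (red squares) and 3 WT libraries (blue circles), with short bars at the means. Cald1 stands at 1203 to 1402 in Aif1-/- and at 10.2 to 17.7 in WT, while Tpm1, Tpm3, Tpm4 and Mylk overlap between the genotypes and Myl9 is at 0 in every library.

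Cald1 (ENSMUSG00000029761, GRCm38 chr6:34598500-34775473, + strand) encodes caldesmon, which binds actin, tropomyosin, myosin and calmodulin. It was high in each Aif1-/- library and at no more than 21 raw counts in each WT library. Raw counts were 1362, 1053 and 921 in Aif1-/- libraries, against 14, 12 and 21 in WT libraries. Normalized counts were 1203, 1402 and 1213 in Aif1-/- libraries, against 14.1, 10.2 and 17.7 in WT libraries. The lowest Aif1-/- library was far above the highest WT library. The means were 1273 ± 112 in Aif1-/- and 14.0 ± 3.78 in WT (SD, n = 3 each), a ratio of 90.9 and a log2 fold change of 6.49 (SE 0.17). By size of positive log2 fold change Cald1 was number 20 of the 17406 genes tested, and by absolute size number 58. Its 18 annotated transcripts include smooth muscle and nonmuscle forms, which counts per gene do not separate. No stretch of 75 bases in its exons occurred in another annotated gene. The gene Npn2 overlaps the span of Cald1 on the opposite strand with no overlap of exons. It had raw counts of 4, 4 and 3 in Aif1-/- libraries, against 0 in each WT library.

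Sequences upstream of Cald1 are shown because its level differed most, and those of Myl9, Cnn2 and Myl6 because they hold a CArG box, the site of serum response factor (SRF), a regulator of many actomyosin genes. The sequences are the 250 bases before RefSeq start sites (build GRCm38.p6), 5′ to 3′ on the strand of the gene. RefSeq gave 13 such windows for all 10 genes, and 6 motifs were searched on both strands: the CArG box, AP-1 (TGANTCA), ETS (GGAAGT), TEAD (GGAATG), SP1 (GGGCGG) and the TATA box (TATAAA). Capitals mark every match to any of these motifs. Cald1 window 1 is chr6:34598254-34598503 and window 2 is chr6:34709194-34709443, before a start site farther into the gene. The others are Myl9 at chr2:156775214-156775463, Cnn2 at chr10:79988350-79988599, and Myl6 window 2 at chr10:128493010-128493259 on the - strand.
Cald1 window 1: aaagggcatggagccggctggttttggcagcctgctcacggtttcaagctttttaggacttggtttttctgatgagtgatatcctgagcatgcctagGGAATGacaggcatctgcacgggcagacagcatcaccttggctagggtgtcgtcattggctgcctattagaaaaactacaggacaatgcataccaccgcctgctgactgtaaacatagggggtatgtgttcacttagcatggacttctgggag
Cald1 window 2: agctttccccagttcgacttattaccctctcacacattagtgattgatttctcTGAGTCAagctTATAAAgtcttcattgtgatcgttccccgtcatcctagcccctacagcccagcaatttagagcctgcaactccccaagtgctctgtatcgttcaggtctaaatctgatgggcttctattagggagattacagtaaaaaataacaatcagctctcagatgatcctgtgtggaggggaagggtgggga
Myl9 window 1: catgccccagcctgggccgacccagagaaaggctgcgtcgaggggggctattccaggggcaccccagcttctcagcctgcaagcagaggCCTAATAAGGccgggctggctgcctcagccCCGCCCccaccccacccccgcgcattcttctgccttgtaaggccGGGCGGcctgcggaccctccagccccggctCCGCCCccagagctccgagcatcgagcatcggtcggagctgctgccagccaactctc
Cnn2 window 1: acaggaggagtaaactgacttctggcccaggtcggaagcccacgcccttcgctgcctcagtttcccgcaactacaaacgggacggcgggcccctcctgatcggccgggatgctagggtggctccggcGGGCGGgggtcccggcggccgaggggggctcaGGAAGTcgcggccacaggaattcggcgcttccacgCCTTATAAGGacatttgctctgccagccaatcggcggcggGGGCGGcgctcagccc
Myl6 window 2: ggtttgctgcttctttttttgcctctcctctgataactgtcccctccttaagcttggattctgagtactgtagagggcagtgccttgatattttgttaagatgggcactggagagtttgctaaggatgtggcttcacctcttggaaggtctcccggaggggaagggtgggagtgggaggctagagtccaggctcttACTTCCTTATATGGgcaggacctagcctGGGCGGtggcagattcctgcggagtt

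A CArG box lay 161 to 152 bases before the start site of Myl9, 56 to 47 before that of Cnn2, and 50 to 41 before the second start site of Myl6. These 3 windows compare with 482 of all 32851 windows of the same length (1.47%). Neither Cald1 window holds a CArG box, which says only that these letters are not in these windows. Cald1 window 1 holds a TEAD match and window 2 an AP-1 and a TATA match, motifs found in 12.6%, 6.75% and 12.4% of all windows. Windows of Tpm1 and Mylk also hold the TEAD letters, that of Mylk the AP-1 letters and that of Myh9 the TATA letters. The SP1 letters occurred in 8 of the 13 windows, against 32.7% of all windows, and the ETS letters in 2, against 19.7%. In Myl6 window 2 the ETS and CArG letters overlap and run together in capitals. Of the genes with a CArG box, Cnn2 and Myl6 were higher in Aif1-/- libraries and Myl9 had no counts. Cald1 and Myh9 were also higher in Aif1-/- libraries, with no CArG box in their windows. A match is a description of letters, not of a bound site.

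The tropomyosin genes encode coiled-coil proteins that cover actin filaments. Tpm4 was at 10010, 9798 and 9351 in Aif1-/- libraries, against 9435, 8307 and 9754 in WT libraries. Tpm3 was at 9097, 8919 and 9022 in Aif1-/- libraries, against 8443, 8037 and 9259 in WT libraries. Tpm1 was at 2773, 2673 and 2661 in Aif1-/- libraries, against 2701, 2570 and 2730 in WT libraries. All 3 genes were abundant in every library, and their genotypes overlapped. Their log2 fold changes were 0.08 (SE 0.07) for Tpm4, 0.07 (SE 0.07) for Tpm3 and 0.02 (SE 0.06) for Tpm1. Tpm2, which encodes the beta-tropomyosin of muscle, had raw counts of 2, 1 and 1 in Aif1-/- libraries and 4, 4 and 0 in WT libraries.

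Levels were compared between genes per length, as CPM per kb of annotated exon. Tpm4 made up 69.9% ± 0.65 of the summed tropomyosin level in Aif1-/- and 69.5% ± 0.82 in WT, Tpm3 23.5% ± 0.58 in Aif1-/- and 23.6% ± 0.69 in WT, and Tpm1 6.60% ± 0.09 in Aif1-/- and 6.89% ± 0.31 in WT (SD, n = 3 each). The summed level was 269 ± 7.02 CPM per kb in Aif1-/- and 255 ± 19.1 CPM per kb in WT. The shares of Tpm4 and Tpm3 differed by less than the SD of either genotype, and that of Tpm1 by less than the SD in WT but more than the SD in Aif1-/-, with libraries that overlapped. With the longest transcript as the length, the Tpm4 share was 49.1% in Aif1-/- and 48.7% in WT and the Tpm3 share 40.8% in Aif1-/- and 40.9% in WT, so the size of each share depends on the length used. The reads of Tpm3 are also the least secure, because 19.1% of its 75-base exon stretches occur in other genes, among them Tpm3-rs7. For Tpm4 this share was 12.1%. Tpm4 also overlaps the exons of Gm26586 on the opposite strand by 134 bases, and Gm26586 had raw counts of 221, 168 and 180 in Aif1-/- libraries, against 185, 243 and 192 in WT libraries.

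**Figure D2:**
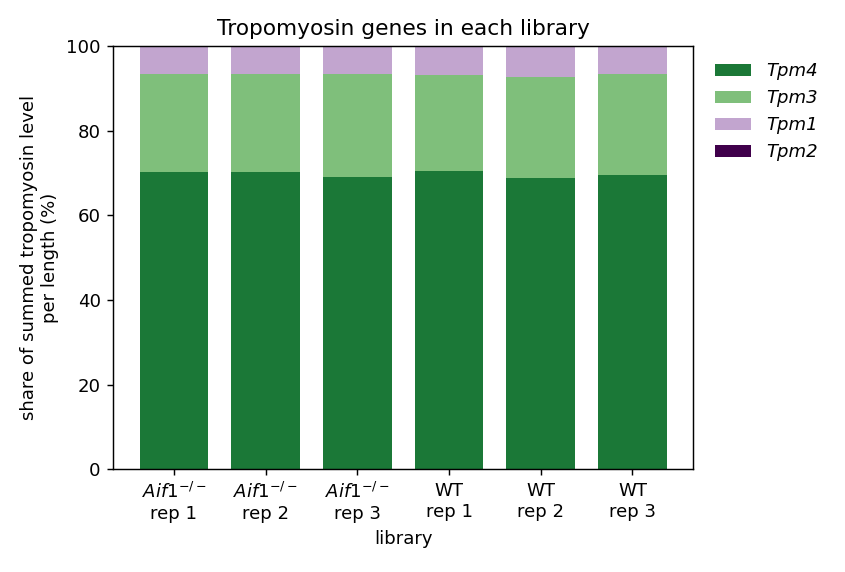
Share (%) of the summed tropomyosin level per length held by Tpm4, Tpm3, Tpm1 and Tpm2 in each library, 3 Aif1-/- on the left and 3 WT on the right. Tpm4 held 69.2% to 70.3% in Aif1-/- libraries and 68.7% to 70.4% in WT libraries, and Tpm2 is too small to see.

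The ratio of Cald1 to Tpm1 differed accordingly. Tpm1 held only 6.60% of the summed tropomyosin level per length in Aif1-/- and 6.89% in WT. The level of Cald1 per length was 0.234, 0.283 and 0.245 times that of Tpm1 in Aif1-/- libraries, against 0.00281, 0.00213 and 0.00350 times in WT libraries. It did not reach the level of Tpm1 in any library. The ratio of Cald1 to Cnn2 was 0.118 ± 0.011 in Aif1-/- and 0.00172 ± 0.00019 in WT (SD, n = 3 each). By contrast, the ratio of Tpm3 to Tpm4 was 0.336 ± 0.012 in Aif1-/- and 0.339 ± 0.014 in WT. With the longest transcript as the length, the ratio of Cald1 to Cnn2 was 0.298 in Aif1-/- and 0.00434 in WT, and that of Tpm3 to Tpm4 was 0.832 in Aif1-/- and 0.840 in WT.

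Myh9 encodes the heavy chain of nonmuscle myosin IIA, the main myosin II of blood cells. It was at 58475, 59037 and 59575 in Aif1-/- libraries, against 41730, 40912 and 49528 in WT libraries, with every Aif1-/- library above every WT library. The ratio of means was 1.34 and the log2 fold change 0.42 (SE 0.08). Gm22107, a small nuclear RNA gene, overlaps the span of Myh9 on the same strand with no overlap of exons. Its raw counts were 68, 61 and 63 in Aif1-/- libraries, against 24, 21 and 24 in WT libraries. Myl6, the essential light chain that partners Myh9, was at 2269, 1875 and 2258 in Aif1-/- libraries, against 1666, 1433 and 1737 in WT libraries. The groups did not overlap, but the lowest Aif1-/- library lay close to the highest WT library. Its log2 fold change was 0.41 (SE 0.10). The ratio of Myl6 to Myh9 per length was 0.147 ± 0.016 in Aif1-/- and 0.149 ± 0.011 in WT (SD, n = 3 each), or 0.0884 in Aif1-/- and 0.0897 in WT with the longest transcript as the length.

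Myl9, a regulatory light chain abundant in smooth muscle and platelets, had 0 counts in all 6 libraries. A count of 0, taken as at most 3 counts over a group, allows up to 0.0484 CPM in Aif1-/- and 0.0379 CPM in WT, a limit that covers counting error only. Mylk, the kinase of the regulatory light chain, was at 18.5, 16.0 and 5.27 in Aif1-/- libraries, against 11.1, 20.4 and 18.6 in WT libraries. Both genotypes were low and overlapped, with a log2 fold change of -0.30 (SE 0.49). The value rested on single libraries: without Aif1-/- replicate 3 the log2 fold change was 0.05, and without Aif1-/- replicate 1 it was -0.65. Exons of Mylk overlap annotated genes on the opposite strand, so its few reads are uncertain.

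Cnn2, a calponin expressed also outside muscle, was at 2159, 2193 and 2253 in Aif1-/- libraries, against 1626, 1374 and 1920 in WT libraries. The Aif1-/- libraries were close to each other and all above the WT libraries. The ratio of means was 1.34 and the log2 fold change 0.42 (SE 0.11). Without Aif1-/- replicate 1 or 3, or WT replicate 1, Cnn2 and Myl6 no longer passed the threshold, and without Aif1-/- replicate 2 Cnn2 alone did not, so that 2 or 3 of the genes remained called.

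In WT libraries, 7 of the 8 tested genes were highest in replicate 3 and lowest in replicate 2, an order shown by 27.0% of all tested genes. That order is the reverse of the share of reads matched to no gene, which was 25.5% in WT replicate 3, 32.4% in replicate 1 and 40.4% in replicate 2. With this share as a covariate the log2 fold changes were 6.61 for Cald1, 0.45 for Myh9, 0.44 for Myl6, 0.49 for Cnn2, 0.11 for Tpm4, 0.09 for Tpm3 and 0.03 for Tpm1, each of the same sign as without it. Aif1-/- replicates spanned only 33.6% to 35.7%.

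**Figure D3:**
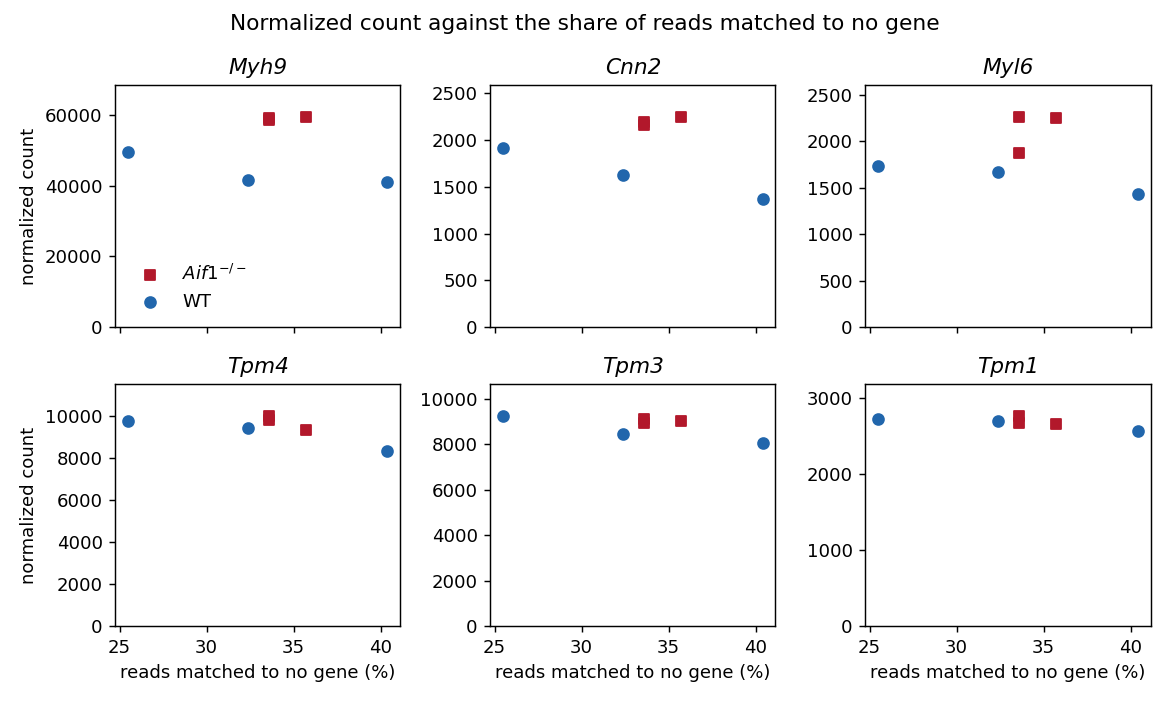
Normalized count (vertical axis, starting at 0) against the share of reads matched to no gene (horizontal axis, %) for 6 of the genes in 3 Aif1-/- libraries (red squares) and 3 WT libraries (blue circles). Among WT libraries the counts are highest in the library at 25.5% and lowest in that at 40.4%, and for Myh9, Cnn2 and Myl6 every Aif1-/- library lies above every WT library.

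Per length, Myh9 (194 CPM per kb) and Tpm4 (188) led in Aif1-/- libraries, followed by Tpm3 (63.0), Cnn2 (38.1), Myl6 (28.5), Tpm1 (17.7), Cald1 (4.50), Mylk (0.0501), Tpm2 (0.0215) and Myl9 (0). In WT libraries the order was Tpm4 (177 CPM per kb), Myh9 (145), Tpm3 (60.0), Cnn2 (28.4), Myl6 (21.5), Tpm1 (17.5), Mylk (0.0630), Cald1 (0.0495), Tpm2 (0.0362) and Myl9 (0). Neighbours whose libraries overlapped were Myh9 with Tpm4 and Mylk with Tpm2 in Aif1-/-, and Tpm4 with Myh9, Mylk with Cald1, Cald1 with Tpm2 and Tpm2 with Myl9 in WT. Cald1 thus sat among the genes at the edge of detection in WT and between Tpm1 and Mylk in Aif1-/-. With the longest transcript as the length, Tpm1 moved above Cnn2 and Myl6 in both genotypes, and in WT Myh9 (252 CPM per kb) moved above Tpm4 (183) and Cald1 (0.125) above Mylk (0.0907).

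**Figure D4:**
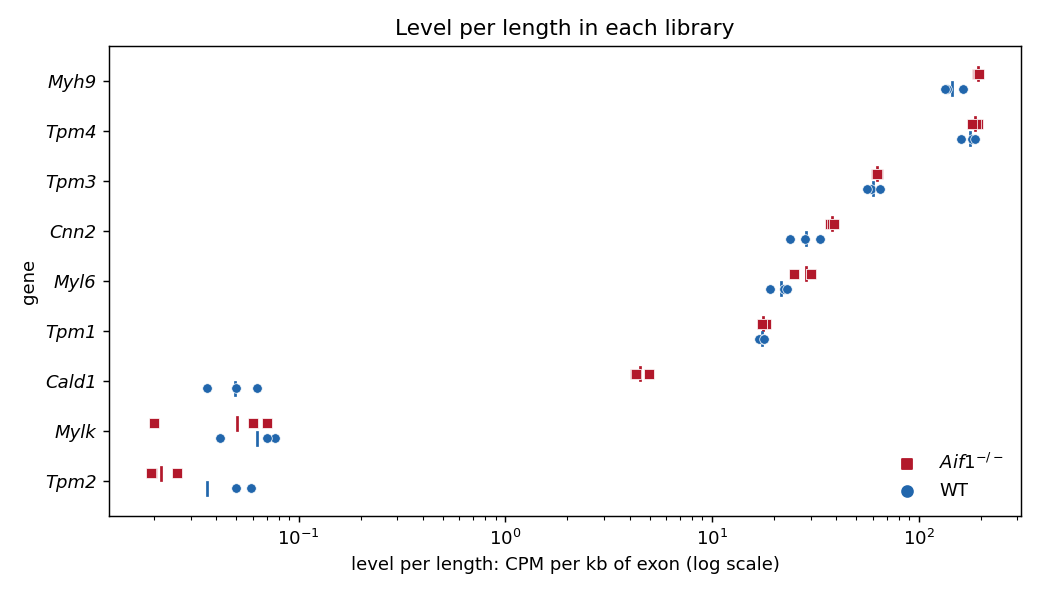
Level per length (CPM per kb of exon, log axis) of 9 of the genes in each Aif1-/- library (red squares) and WT library (blue circles), with vertical bars at the means. Myl9 is not drawn and the WT library with 0 counts of Tpm2 has no point. Cald1 has a mean of 4.50 in Aif1-/- and 0.0495 in WT.

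The other genes of the pathway were taken as 7 lists with 67 genes, of which 52 could be tested. Of these, 5 rose, 7 fell and 40 were not called (12 of 52 called, beside 18.6% of all genes), with a median log2 fold change of 0.03, against -0.00 over all tested genes. The count of partner genes called was 23 (14 up, 9 down) with the share of reads matched to no gene as a covariate. It was 22 (14 up, 8 down) without WT replicate 3, so the balance of directions depends on these settings. Among other myosin II chains, 2 of 6 tested rose and 1 fell. Myh10, the heavy chain of nonmuscle myosin IIB, averaged 1922 ± 28.3 in Aif1-/- and 2742 ± 270 in WT (log2 fold change -0.51, edgeR adjusted p = 0.00122). Myl12a and Myl12b, regulatory light chains of nonmuscle myosin, averaged 5427 ± 155 and 3230 ± 72.6 in Aif1-/-, against 3885 ± 476 and 2462 ± 127 in WT (log2 fold changes 0.48 and 0.39, edgeR adjusted p = 0.0035 and 0.00208). All 3 kept these calls in each of the 14 alternative analyses. Myh11, the smooth muscle heavy chain, had 11, 7 and 12 raw counts in Aif1-/- libraries, against 12, 2 and 29 in WT libraries.

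Of 19 tested genes that set light chain phosphorylation, 1 rose, 3 fell and 15 were not called. Cdc42bpa, a kinase related to ROCK that acts on myosin under Cdc42, averaged 170 ± 37.4 in Aif1-/- and 1323 ± 164 in WT (log2 fold change -2.96, edgeR adjusted p = 5.73e-07). Its relative Cdc42bpb had a log2 fold change of -0.53 (edgeR adjusted p = 0.00126). Arhgef12, an exchange factor that activates RhoA, averaged 989 ± 56.2 in Aif1-/- and 2810 ± 125 in WT (log2 fold change -1.51, edgeR adjusted p = 3.59e-07). Dapk1, a calmodulin-dependent kinase, averaged 3513 ± 30.0 in Aif1-/- and 2375 ± 66.4 in WT (log2 fold change 0.56, edgeR adjusted p = 0.000102). The core genes Rhoa (log2 fold change 0.09), Rock1 (0.08) and Rock2 (-0.01) were not called.

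**Figure D5:**
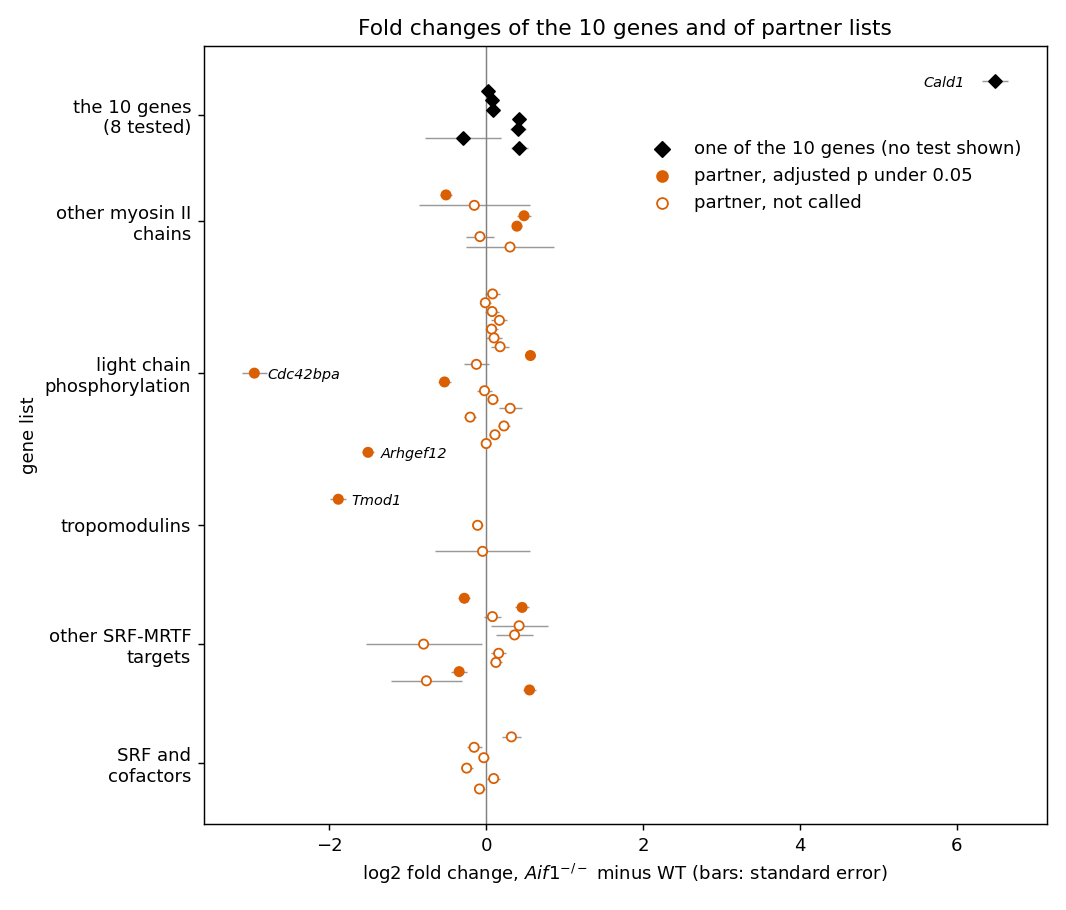
Log2 fold change, Aif1-/- minus WT, with standard errors, of the 8 tested genes (black diamonds, no test) and of 5 partner lists (filled circles, edgeR adjusted p under 0.05; open circles, not called). Cald1 stands alone at 6.49, and the labelled falls are Cdc42bpa at -2.96, Tmod1 at -1.89 and Arhgef12 at -1.51.

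Tropomodulins cap actin filaments by binding tropomyosin. Tmod1 averaged 158 ± 5.59 in Aif1-/- and 583 ± 19.8 in WT (log2 fold change -1.89, edgeR adjusted p = 8.08e-07), while Tmod3, a widely expressed relative, was not called (log2 fold change -0.11). Of the 3 calmodulin genes and S100a4, and of 5 tested genes for calponins, transgelins and smoothelin, none was called. None of the 6 tested genes for SRF and its cofactors was called: Srf had a log2 fold change of 0.32 (edgeR adjusted p = 0.115), which passed in 3 of 14 alternatives, Elk1 had -0.25 (edgeR adjusted p = 0.05), which also passed in 3, and Myocd had 0 counts in every library. Of 11 tested other targets of SRF and its MRTF cofactors, Actb (log2 fold change 0.46, edgeR adjusted p = 0.00515) and Filip1l (0.55, adjusted p = 0.00107) rose and Vcl (-0.28, adjusted p = 0.0268) and Csrp1 (-0.34, adjusted p = 0.0458) fell. The last 2 lost the call with some libraries left out: Vcl passed in 11 and Csrp1 in 10 of 14 alternatives.

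Markers of other cells in which these genes are high were checked beside Cald1. Of 8 smooth muscle markers, Des, Lmod1 and Myocd had 0 counts in every library, none of the 5 tested was called, and the summed level was 17.8 to 20.6 CPM in Aif1-/- and 16.1 to 18.4 CPM in WT. Of 7 fibroblast markers, Dcn and Lum had 0 counts, none could be tested, and the summed level was 0 to 1.18 CPM in Aif1-/- and 0 to 0.361 CPM in WT. Of 10 platelet markers, 5 could be tested, of which 3 rose (beside 8.04% of all genes) and none fell, with summed levels of 87.0 to 91.5 CPM in Aif1-/- and 41.4 to 46.4 CPM in WT. They were Pf4, with a log2 fold change of 0.97, Treml1, with 1.94, and Ppbp, with 4.41 from few reads. Pf4 had the largest counts of the list, with means of 1745 in Aif1-/- and 892 in WT. The other 2 tested, Itga2b (log2 fold change -0.49) and Gp1ba (0.08), were not called. Gp9, Gp5, Gp6 and Tubb1 had too few counts to test. For Ppbp 18, 13 and 25 reads were counted in Aif1-/- libraries, against 3, 0 and 0 in WT libraries, and Gp1bb had none in any library. Of 8 striated muscle markers 1 of 3 tested rose (beside 8.04% of all genes), Acta1, which passed in 8 of 14 alternatives. Actc1 and Myh7 had 0 counts. The summed level of the striated muscle markers was 11.9 to 13.1 CPM in Aif1-/- and 7.66 to 14.7 CPM in WT. Of 5 endothelial markers 1 of 3 tested fell (beside 10.5% of all genes), Kdr (log2 fold change -0.49). Vwf (-0.11) and Cdh5 (-0.05) were not called, and Pecam1 and Tek had too few counts to test. Summed levels were 287 to 298 CPM in Aif1-/- and 308 to 363 CPM in WT. Vwf had the largest counts of the list, with means of 6179 in Aif1-/- and 6678 in WT. None of 7 granulocyte markers could be tested, 4 of them at 0 in every library, with summed levels of 0.392 to 0.850 CPM in Aif1-/- and 0 to 1.07 CPM in WT. The part of platelet or striated muscle RNA in the Cald1 difference was not tested.

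The genes whose log2 CPM across the 6 libraries was most like that of Cald1, among 8471 genes of sufficient level outside the lists, were Fcrls (Pearson r = 0.9998), Rps6ka1 (r = 0.9997), Csnk1e (r = 0.9995), Igf2r (r = 0.9994) and Minar1 (r = 0.9993). All 5 were higher in each Aif1-/- library than in any WT library, with ratios of means, in that order, of 23.7, 3.07, 1.51, 1.97 and 5.71. The 6 points share 2 genotypes, so r mostly follows the gap between them and is a description only.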

How the data were processed

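Total RNA depleted of ribosomal RNA was sequenced from 6 BMM libraries. The authors made the deposited raw counts per gene: per the methods and the submitters' processing notes, reads were trimmed with Trim Galore 0.5, aligned to GRCm38 with TopHat2 2.0.13 at no more than 1 location and counted over Ensembl release 84 genes with HTSeq 0.6.1p1. Because a read has 1 location, genes with near-identical copies are uncertain, and whether counting used the strand was not settled. Each file's 5 summary rows, which name no gene, stayed out of library sizes and tests: reads matched to no gene were 25.5% to 40.4% and ambiguous reads 4.55% to 7.15%. GENCODE M21 symbols matched 47310 of 47729 genes.

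Libraries were grouped by genotype labels. Counts were fitted with edgeR 4.0.16 (R 4.3.3, limma 3.58.1): genotype as the only factor, TMM, filterByExpr, quasi-likelihood test, Benjamini-Hochberg over 17406 genes, threshold 0.05. SE is the size of a log2 fold change over the root of its F value. Levels per length are TMM-scaled CPM per kb of the union of annotated exons. Log2 CPM used a prior count of 2. Exact permutation of 3 against 3 libraries cannot give p below 0.1, so it was not used. The procedure was tested on simulated data. Alternatives were DESeq2 1.42.0, other size factors, other filters, thinning, a replicate block, a covariate and each library left out.

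The 10 genes and the lists were chosen with earlier results of these data known. Named genes are the 10, Aif1, up to 4 tested genes per list with the smallest adjusted p, markers at or near 0, and the 5 genes most like Cald1 (mean log2 CPM at or above 4). Aif1l, Npn2, Gm22107, Gm26586, Tpm3-rs7, Myh11, Gp1ba, Rhoa, Rock1 and Rock2 were named after their values were seen.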

Additional observations from a re-analysis of the deposited data

How the results depend on the processing

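Over the 14 alternatives the log2 fold change was 6.30 to 6.72 for Cald1, 0.38 to 0.52 for Myh9, 0.33 to 0.50 for Myl6, 0.32 to 0.56 for Cnn2, 0.02 to 0.14 for Tpm4, 0.03 to 0.14 for Tpm3 and -0.00 to 0.04 for Tpm1, while Mylk, in the 13 that could fit it, ran from -0.65 to 0.05. With the share of reads matched to no gene as a covariate, 5517 genes were called in all and 23 in the partner lists. Leaving out 1 library at a time gave 2040 to 4889 genes in all, 2 to 4 of the 10 genes and 10 to 22 partner genes. Both highest counts came without WT replicate 3, against 3231, 4 and 12 with every library, and the cause was not tested. With the longest transcript as the length, the shares of the tropomyosin sum were 49.11% (Tpm4), 40.83% (Tpm3) and 10.05% (Tpm1) in Aif1-/- and 48.67%, 40.86% and 10.45% in WT, because the annotated lengths differ. Replicate numbers did not pair the libraries: the deviations of same-numbered libraries correlated at 0.06, -0.08 and -0.09, and with the replicate number as a block 2872 genes were called. Of the values of the other named genes, 13 gained and 13 lost the call, and 19 changed sign, all of 9 genes that were not called with every library. Leaving out 1 library at a time, these genes ran from -0.49 to 0.46 (Tmod4), -0.65 to 0.25 (Cdh5), -0.04 to 0.07 (Calm2), -0.05 to 0.09 (Calm3), -0.04 to 0.13 (Smtn), -0.07 to 0.80 (Myl4), -0.01 to 0.22 (Tagln2), -0.42 to 0.24 (Ttn) and -0.32 to 0.04 (S100a4). Tmod4 was also at 0.03 with the replicate block, and Cdh5 at 0.13 with the covariate and 0.01 after thinning. Tpm2, Myl9 and Mylk had few or no counts in both genotypes, which limits what their values show.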
